A study of Mus musculus with 45 samples.

Results

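Immediate early transcription factors and Myc were followed here across the kidneys of 45 mice. The genes were Fos, Fosb, Jun, Junb, Egr1, Atf3, Ier2, Ier3, Myc and Klf6, that is 10 of the 55401 genes in the count tables. They were chosen by name, as the immediate early transcription factors and their close companions together with Myc, and their gene identifiers were matched to symbols. All 10 are protein coding and all 10 passed the filter on low counts in both sexes, among 15991 genes tested in males, 15968 in females and 15828 in both.

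Immediate early genes are switched on from a poised state within minutes of a stimulus and need no new protein synthesis. Growth factor and stress kinases act on factors already bound at their promoters, and the proteins made then act on slower genes. Fos and Fosb pair with Jun and Junb to form AP-1, a dimeric factor that binds DNA. Egr1 and Klf6 are zinc finger factors, Atf3 is a stress-induced member of the ATF/CREB family that can also pair with Jun proteins, and Ier2 and Ier3 are small early response proteins. Myc pairs with Max and acts on genes of growth and ribosome synthesis. Jun overlaps the antisense gene Junos and Atf3 the small gene Gm24748, and since the strand setting of the counting is not given in the sources used here, counts of these 2 are less certain. In kidney, these genes are also known to respond to injury and to the handling of tissue.

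The measurements were TRAP RNASeq, in which ribosomes carrying a tagged Rpl10a subunit are pulled down from whole kidney and their bound RNA is sequenced. All mice carried RosaEGFP-Rpl10a, Pax8rtTA and TetOCre, received doxycycline from postnatal day 28 to 42, and were taken at 7 weeks (postnatal day 49). The noncystic mice were Pkd1 fl/+, labelled wild type (8 males, 7 females), the Pkd1KO mice were Pkd1 fl/fl (7 males, 8 females), and the Pkd1KO+ciliaKO mice were Pkd1 fl/fl and Kif3a fl/fl (9 males, 6 females). Kif3a encodes a kinesin-2 motor subunit that cilia require. No group lost Kif3a alone, so an effect of Kif3a loss itself cannot be told apart from a dependence of the Pkd1KO effect on cilia. The noncystic mice thus shared the transgenes and the drug and carried 1 floxed Pkd1 allele. The tag and Cre are limited to cells in which Pax8rtTA is active, mainly tubule epithelium, and fewer cells of a type and less RNA per cell cannot be told apart.

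Library totals ran from 80874556 to 132958186 counts, so that even Fosb, the scarcest of the 10, had 18 counts or more in every mouse. Kif3a was 22.5 CPM (counts scaled to a common library total) at the median of noncystic males, where the range was 13.8 to 25.5 CPM, and 5.59 CPM in Pkd1KO+ciliaKO males, where all 9 mice lay between 4.90 and 7.45 CPM. In females 2 libraries went against their labels: noncystic replicate 5 had 6.69 CPM of Kif3a and Pkd1KO+ciliaKO replicate 6 had 20.7 CPM. Pkd1 did not pass the test in any of the 6 genotype comparisons within a sex, and counts over the whole gene do not report on a deleted exon. Among the 24 males, 4 (noncystic replicate 3, Pkd1KO replicate 4, Pkd1KO+ciliaKO replicates 6 and 8) had the lowest median correlation with the mice of their own group, 0.975 to 0.986. The tissue label was met: the proximal tubule genes Lrp2 and Slc34a1 and the thick ascending limb gene Umod were abundant in every mouse (at least 2218, 986 and 1048 CPM).

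Per transcript length, the most abundant of the 10 genes was Ier3, at a median of 99.6 TPM (transcripts scaled for length and depth) over the 45 mice. Jun followed at 83.6 TPM, Junb at 51.0 TPM, Egr1 at 42.3 TPM, Ier2 at 41.3 TPM and Klf6 at 37.3 TPM. Fos was at 17.6 TPM, Myc at 12.0 TPM, Atf3 at 10.3 TPM and Fosb at 0.462 TPM. Mice spread widely around these medians, and Egr1 ran from 4.13 to 480 TPM. The levels that follow are in CPM, which compares one gene between mice and not one gene with another.

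Promoter sequence was read for 7 of the 10 genes (all but Egr1, Ier2 and Myc) from the RefSeq promoter table for GRCm38.p6, as the 250 bases before the start site. Of these, 4 are printed because they cover the range of spread between mice: Fos, Fosb and Junb, which varied widely, and Klf6, which varied least. Genome positions are 1-based. Capitals mark matches, on either strand, to TGACG (the core of the cAMP response element), TATAAA (the TATA box) and CACGTG (the E-box that Myc and Max bind).
Fos (chr12:85473640-85473889, plus strand): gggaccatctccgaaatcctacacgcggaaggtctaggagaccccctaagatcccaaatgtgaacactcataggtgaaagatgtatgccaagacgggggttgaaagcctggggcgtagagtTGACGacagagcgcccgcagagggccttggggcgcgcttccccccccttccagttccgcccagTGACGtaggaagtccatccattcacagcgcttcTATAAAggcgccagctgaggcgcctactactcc
Fosb (chr7:19310046-19310295, minus strand): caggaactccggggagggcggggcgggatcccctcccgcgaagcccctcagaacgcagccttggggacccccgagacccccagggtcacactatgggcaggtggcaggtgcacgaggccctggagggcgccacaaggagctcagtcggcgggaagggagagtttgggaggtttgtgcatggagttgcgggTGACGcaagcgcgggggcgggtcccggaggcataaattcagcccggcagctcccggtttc
Junb (chr8:84978749-84978998, minus strand): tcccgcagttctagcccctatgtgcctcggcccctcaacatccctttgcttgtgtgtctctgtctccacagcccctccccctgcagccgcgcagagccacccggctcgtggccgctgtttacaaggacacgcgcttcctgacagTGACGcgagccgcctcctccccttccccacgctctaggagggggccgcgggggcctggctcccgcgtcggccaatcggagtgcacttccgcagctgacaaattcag
Klf6 (chr13:5861239-5861488, plus strand): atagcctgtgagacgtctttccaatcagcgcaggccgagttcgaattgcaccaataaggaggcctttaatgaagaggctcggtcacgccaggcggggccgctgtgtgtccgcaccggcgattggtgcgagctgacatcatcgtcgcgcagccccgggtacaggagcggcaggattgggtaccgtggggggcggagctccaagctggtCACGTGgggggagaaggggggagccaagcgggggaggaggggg

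TGACG was found in 4 of the 7 promoters (Fos, Fosb, Junb and Atf3), beside 17.9% of 27018 promoters of this length. TATAAA was found in 1 of 7, Fos, beside 3503 of the 27018, and CACGTG in 1 of 7, Klf6, beside 6.05%. The CArG box that serum response factor binds, the full element TGACGTCA and the AP-1 site TGAGTCA had no match in these windows for any of the 7 (1.40%, 1.62% and 4.43% of all promoters), which says only that the letters are not in these windows. TGACGTCA holds TGACG, so those motifs overlap.

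**Figure D1:**
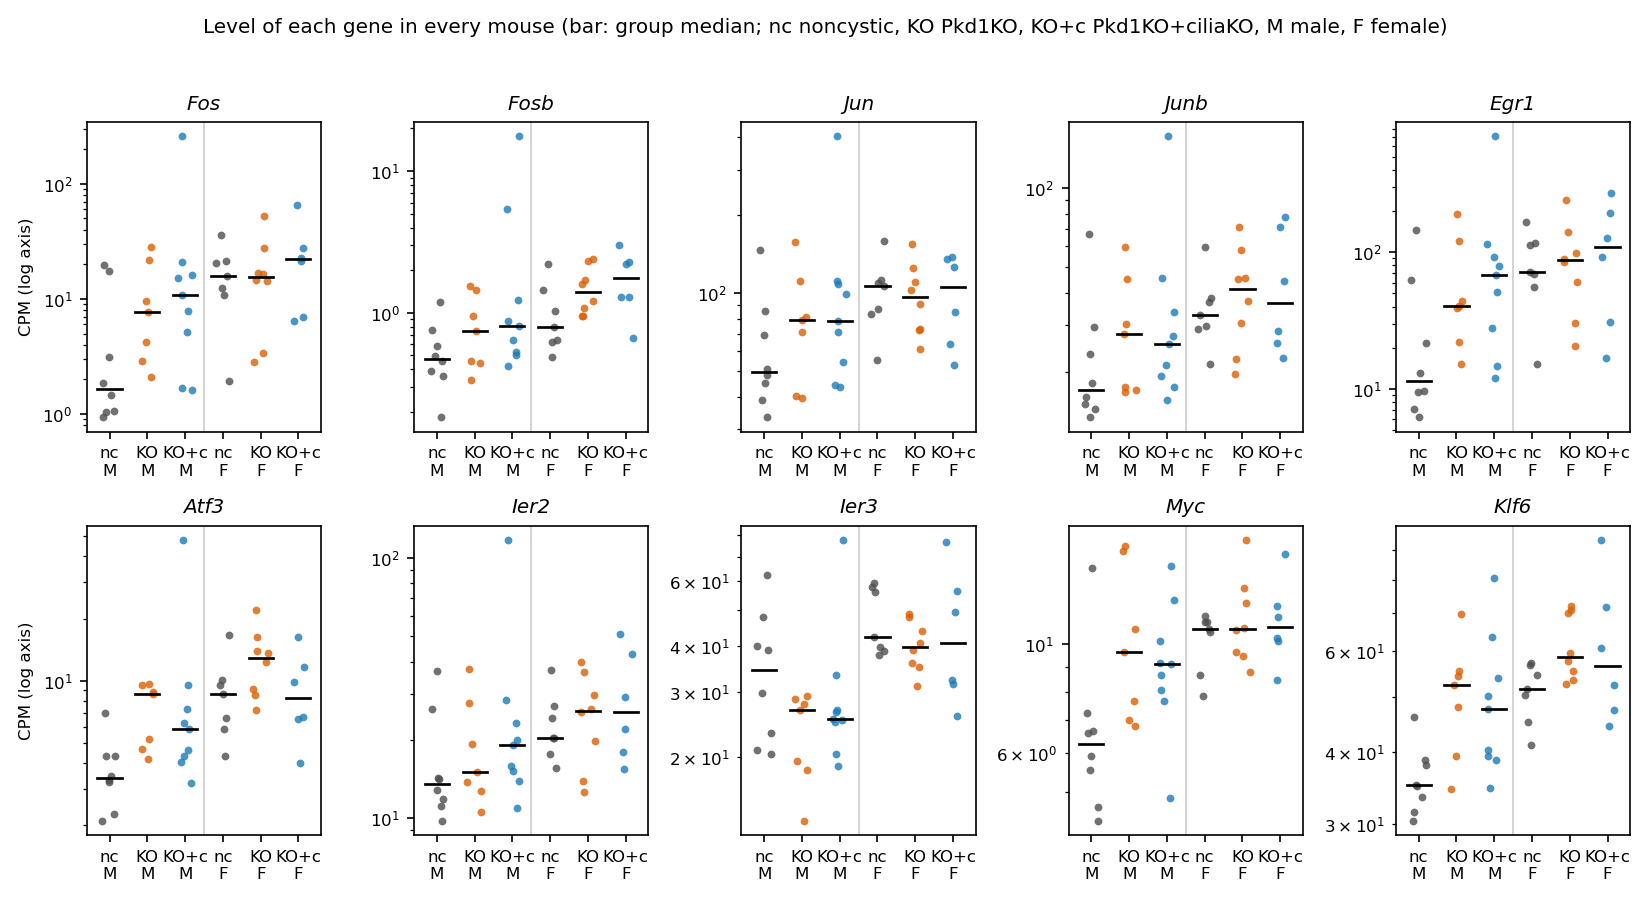
Level of each of the 10 genes in every mouse, in CPM on a log axis, by genotype and sex. Each point is 1 mouse and each bar a group median. Pkd1KO+ciliaKO male replicate 2 is the top point of that group for 9 of the 10 genes, and no 2 groups compared are fully apart for any gene.

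Fos, the best known AP-1 subunit, varied most. In noncystic males Fos ran from 0.934 to 19.6 CPM with a median of 1.66 CPM. Of the 8 mice, 6 lay at or below 3.11 CPM, and replicates 6 and 7 stood at 17.5 and 19.6 CPM. In Pkd1KO males Fos ran from 2.08 to 28.0 CPM (median 7.63 CPM), and in Pkd1KO+ciliaKO males from 1.60 to 259 CPM (median 10.8 CPM). The value of 259 CPM was that of a single mouse, replicate 2, and the next highest of its group was 21.1 CPM. Females had higher medians: 15.8 CPM in noncystic mice (1.92 to 35.9), 15.5 CPM in Pkd1KO mice (2.81 to 52.8) and 22.1 CPM in Pkd1KO+ciliaKO mice (6.44 to 65.0). The groups overlapped in every pairing.

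Egr1, the zinc finger factor, had the same shape. Its level ran from 6.19 to 146 CPM in noncystic males (median 11.4 CPM), from 15.3 to 189 CPM in Pkd1KO males (median 40.5 CPM) and from 11.96 to 707 CPM in Pkd1KO+ciliaKO males (median 67.9 CPM). All 9 Pkd1KO+ciliaKO males and all 7 Pkd1KO males were above the noncystic male median, and the groups overlapped, with noncystic replicates 6 and 7 at 62.9 and 146 CPM. In females the medians were 71.5, 87.5 and 109 CPM for noncystic, Pkd1KO and Pkd1KO+ciliaKO mice, over a range from 15.3 to 272 CPM.

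Jun and Junb, the partners of the Fos proteins, were less variable. Jun had male medians of 49.7, 78.7 and 78.4 CPM in noncystic, Pkd1KO and Pkd1KO+ciliaKO mice, and female medians of 107, 96.8 and 106 CPM. Junb had male medians of 17.0, 27.8 and 25.4 CPM and female medians of 32.8, 41.1 and 36.4 CPM. Ier2, an early response nuclear protein, had male medians of 13.5, 15.1 and 19.1 CPM and female medians of 20.4, 25.8 and 25.5 CPM. For each of the 3 genes the lowest of the 6 group medians was that of the noncystic males.

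Fosb, a Fos relative, was scarce in most mice. Its medians were 0.475, 0.748 and 0.807 CPM in noncystic, Pkd1KO and Pkd1KO+ciliaKO males and 0.799, 1.41 and 1.76 CPM in the females. In Pkd1KO+ciliaKO males replicate 2 had 17.7 CPM and replicate 3 had 5.38 CPM, while the other 7 lay between 0.419 and 1.23 CPM, within or just above the noncystic male range of 0.183 to 1.18 CPM. Most mice of that group were thus close to the noncystic males and 2 were not.

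Atf3, the stress-induced factor, was 3.75 ± 1.53 CPM (SD, n = 8) in noncystic males, with a range of 2.10 to 6.96 CPM and a median of 3.38 CPM. In Pkd1KO males it was 7.24 ± 2.43 CPM (SD, n = 7), with a range of 4.18 to 9.62 CPM and a median of 8.63 CPM. All 7 Pkd1KO males were above the noncystic median, and 4 of them, at 8.63 to 9.62 CPM, were above every noncystic male. In Pkd1KO+ciliaKO males the range was 3.22 to 48.3 CPM and the median 5.83 CPM. In females the medians were 8.65 CPM (noncystic), 12.96 CPM (Pkd1KO) and 8.28 CPM (Pkd1KO+ciliaKO), over a range from 4.00 to 21.97 CPM.

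Klf6, a Krüppel-like factor linked to injury of tubule cells, was the steadiest of the 10. It was 36.0 ± 4.99 CPM (SD, n = 8) in noncystic males, between 30.3 and 46.0 CPM. In Pkd1KO males it was 50.5 ± 11.5 CPM (SD, n = 7), between 34.4 and 69.6 CPM. In Pkd1KO+ciliaKO males it was 49.8 ± 14.6 CPM (SD, n = 9), between 34.7 and 80.5 CPM. The highest noncystic male and the highest Pkd1KO male for Klf6 were both among the 4 males with the lowest correlation to their group. Female Klf6 medians were 51.5, 58.7 and 56.6 CPM, all above the noncystic male maximum of 46.0 CPM.

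Myc and Ier3 are given last. Myc had male medians of 6.25, 9.63 and 9.13 CPM in noncystic, Pkd1KO and Pkd1KO+ciliaKO mice, and female medians of 10.7, 10.7 and 10.8 CPM. Noncystic male replicate 6 had 14.3 CPM of Myc against at most 7.24 CPM in the other 7. Ier3, a stress-inducible survival gene, was lower in Pkd1KO males (13.4 to 29.2 CPM, median 26.9) than the noncystic male median of 34.4 CPM in all 7 mice, though the noncystic range of 20.3 to 62.3 CPM overlapped theirs. Female Ier3 medians were 42.4, 39.8 and 40.9 CPM.

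The first comparison, Pkd1KO against noncystic, asks what loss of Pkd1 alone does. In males 2 of the 10 genes passed an adjusted p of 0.05 (edgeR's quasi-likelihood test, Benjamini-Hochberg over all genes tested), both upward, against a background of 6.3% of all genes called in either direction and 4.05% called higher. Klf6 was 1.40-fold higher, a log2 fold change of 0.49 ± 0.13 (SE) with an edgeR adjusted p of 0.0312. Atf3 was 1.93-fold higher, a log2 fold change of 0.95 ± 0.26 (SE) with an edgeR adjusted p of 0.0365. Myc (0.60 ± 0.26, adjusted p = 0.18) and Ier3 (−0.60 ± 0.24, adjusted p = 0.155) had an unadjusted p under 0.05 in edgeR but missed the adjusted threshold. Egr1 and Fos had fitted log2 differences of 0.97 ± 0.72 and 0.90 ± 0.77, with edgeR adjusted p of 0.461 and 0.529. Both values moved with single mice: without noncystic replicate 7 Egr1 was at 1.85 and Fos at 1.49, and without noncystic replicate 6 Fos was at 1.40. Egr1 was at 0.45 without Pkd1KO replicate 2, and Fos at 0.47 without Pkd1KO replicate 7. The median log2 fold change of the 10 genes was 0.54, beside −0.01 over all genes. Of the 10, 9 were positive, beside 48.4% of all genes. Several of the 10 varied together between mice, as given below, so these signs are not independent of each other.

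Both calls sat near the threshold. Klf6 was called in 8 of the 15 fits that left out 1 mouse, and was not called without noncystic replicates 2, 4, 5 or 6 or Pkd1KO replicates 3, 4 or 7 (adjusted p 0.0531 to 0.0639, log2 fold change 0.40 to 0.48). Atf3 was called in 4 of 15, those without noncystic replicate 5 or Pkd1KO replicates 1, 5 or 6, and in the other 11 its adjusted p was 0.0506 to 0.0774 at a log2 fold change of 0.86 to 0.98. Myc was called only without noncystic replicate 6, at 0.84 with an edgeR adjusted p of 0.028. Without the 4 males that stood apart, Klf6 held (0.45, adjusted p = 0.0178) and Atf3 did not (0.87, adjusted p = 0.0885). The fold changes of both were positive in all 27 alternatives run. Markers of other cells moved in the same direction: the summed level of the 9 macrophage genes was 78.2 to 115 CPM in noncystic males and 105 to 447 CPM in Pkd1KO males, the highest being replicate 4. Of the 9, Lyz2 (2.98) and Csf1r (0.35) passed, the median was 1.65, and all 9 were positive. Without that replicate Klf6 was at 0.40 (edgeR adjusted p = 0.0561) and Atf3 at 0.89 (edgeR adjusted p = 0.0706). The part of these markers in the calls was not tested.

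In females none of the 10 genes passed in Pkd1KO against noncystic, where 3.34% of all genes did. Klf6 came nearest, at 0.27 ± 0.09 (SE) and an edgeR adjusted p of 0.111, and all 8 Pkd1KO females were above the noncystic female median. It was the only one of the 10 with an unadjusted p under 0.05 in edgeR, beside 16.4% of all genes. DESeq2 also called none. Without the 2 females against their labels the count stayed at 0. Fos was at 0.13 ± 0.55 and Jun at −0.04 ± 0.21, both smaller than their own errors. The median over the 10 genes was 0.15, beside −0.00 over all genes.

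**Figure D2:**
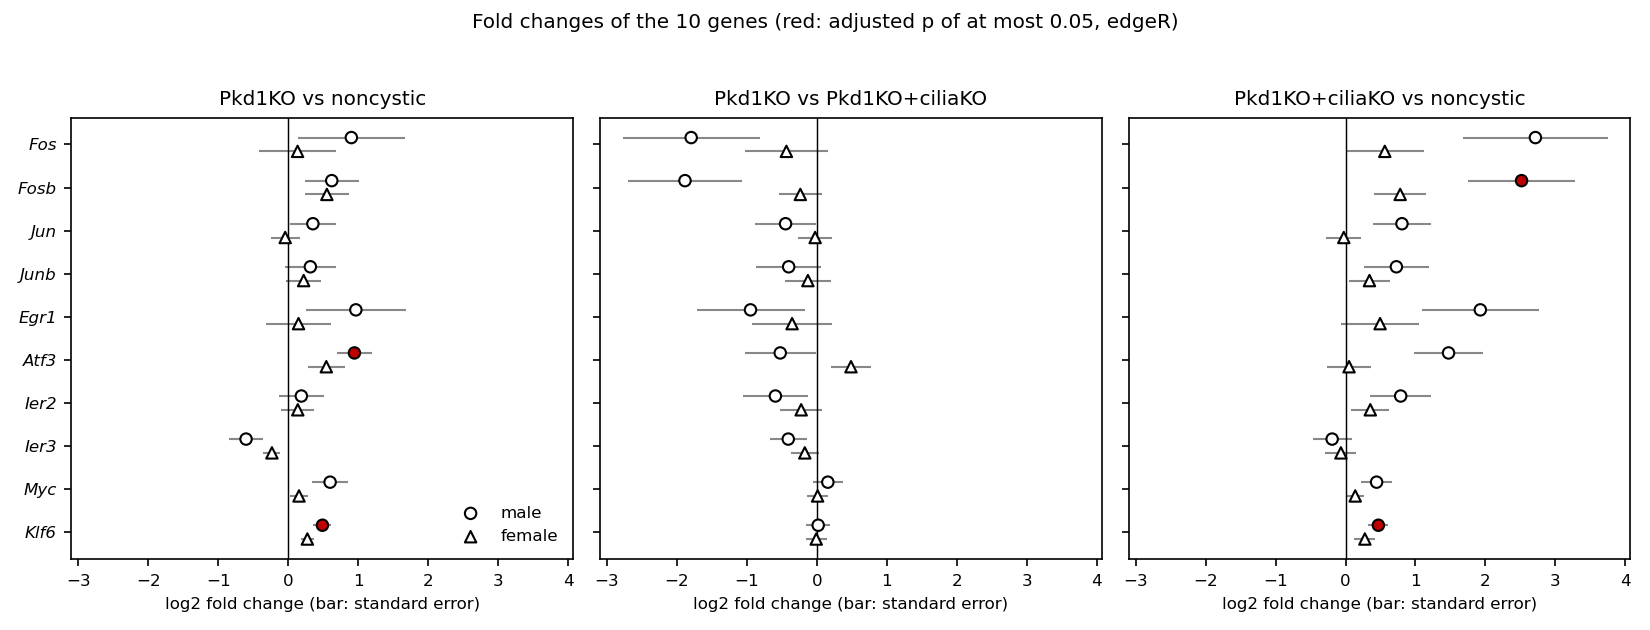
Fitted log2 fold change of each gene in the 3 genotype comparisons, with its standard error, for males (circles) and females (triangles). The points filled in red passed an edgeR adjusted p of 0.05: Atf3 and Klf6 in Pkd1KO against noncystic males, and Fosb and Klf6 in Pkd1KO+ciliaKO against noncystic males.

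The second comparison, Pkd1KO against Pkd1KO+ciliaKO, sets loss of Pkd1 alone beside loss of both Pkd1 and Kif3a. None of the 10 genes passed in either sex, against backgrounds of 3.77% of genes in males and 11.7% in females. DESeq2 called none as well. At an unadjusted p under 0.05 in edgeR the count was 1 in males (Fosb) and 0 in females. The shares of all genes at that limit were 19.7% and 27.7%. Klf6 differed by 0.02 ± 0.17 in males and −0.01 ± 0.15 in females, and Myc by 0.16 ± 0.22 and 0.01 ± 0.15, so that for these 2 genes the difference between the knockout genotypes was smaller than its SE in both sexes. Fos was at −1.80 ± 0.98 in males (adjusted p = 0.323 in edgeR), that is higher in Pkd1KO+ciliaKO mice in the fit. Without Pkd1KO+ciliaKO male replicate 2 the Fos difference turned to 0.13, Egr1 went from −0.95 to 0.23, Atf3 from −0.52 to 0.36, Jun from −0.45 to 0.12 and Ier2 from −0.59 to 0.09. The direction of these 5 genes in males therefore rested on 1 mouse. In females 9 of the 10 differences were smaller than their own SE, the exception being Atf3 at 0.49 ± 0.29 (adjusted p = 0.293).

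The third comparison sets Pkd1KO+ciliaKO against noncystic mice. In males 2 of 10 genes passed, against 8.89% of all genes in either direction and 5.63% called higher. Fosb had a log2 fold change of 2.52 ± 0.77 (SE) with an edgeR adjusted p of 0.0476, and Klf6 one of 0.47 ± 0.14 with an edgeR adjusted p of 0.0464. Atf3 (1.47 ± 0.50, adjusted p = 0.0705), Fos (2.71 ± 1.03, adjusted p = 0.109) and Egr1 (1.93 ± 0.84, adjusted p = 0.163) did not pass although their fitted differences were larger than that of Klf6. The median log2 fold change of the 10 genes was 0.80, beside 0.01 over all genes. Of the 10, 9 were positive, beside 52.0% of all genes, and again these signs are not independent of each other.

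The Fosb value rested on 1 mouse. Without replicate 2 it was 1.25 with an edgeR adjusted p of 0.155, while without replicate 3 it was 2.38 with an edgeR adjusted p of 0.0741. It was called in 7 of 17 fits that left out 1 mouse, each of which left out a Pkd1KO+ciliaKO male other than these 2, and no fit without any one noncystic male called it. Klf6 was called in 5 of 17, without noncystic replicate 3 or Pkd1KO+ciliaKO replicates 1, 4, 5 or 9, and in the other 12 its adjusted p ran from 0.0606 to 0.103. Leaving out replicate 2 lowered Fos from 2.71 to 0.79, Egr1 from 1.93 to 0.75, Atf3 from 1.47 to 0.59, Jun from 0.81 to 0.24, Junb from 0.73 to 0.07 and Ier2 from 0.79 to 0.10, while Klf6 went from 0.47 to 0.35 and Myc from 0.44 to 0.38. Without noncystic replicate 6 Myc was called, at 0.68 with an edgeR adjusted p of 0.0292. In females none of the 10 passed (background 2.54%), and DESeq2 called none. None had an unadjusted p under 0.05 in edgeR, beside 21.4% of all genes. The largest fitted difference was that of Fosb at 0.78 ± 0.37 (edgeR adjusted p = 0.244).

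The sexes were compared next. The difference between male and female effects, tested as an interaction over all 45 mice, passed for none of the 10 genes in any of the 3 genotype comparisons, where 0.0126%, 0.221% and 0.0316% of all genes passed in Pkd1KO against noncystic, Pkd1KO against Pkd1KO+ciliaKO, and Pkd1KO+ciliaKO against noncystic. The edgeR counts at an unadjusted p under 0.05 were 0, 0 and 2 of 10, beside 8.08%, 7.94% and 5.49% of all genes. The 2 were Atf3 (1.41 ± 0.59) and Fosb (1.72 ± 0.84) in the last comparison, and DESeq2 called none. Without Pkd1KO+ciliaKO male replicate 2 those 2 values were 0.54 and 0.45. The calls made in males and not in females are thus not shown to differ between the sexes.

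Males and females were deposited in separate tables of raw counts, and by the methods of the study all libraries went through sequencing as one batch. Between noncystic males and noncystic females the 10 genes had a common sign, all lower in males in the fit. Their median was −0.59 on the log2 scale, beside −0.01 over all genes. Over all genes 48.0% were higher in males. The signs of the 10 are not independent of each other. Of the 10, 2 passed, against 27.5% of all genes in either direction and 12.2% called lower, and both were lower in males. Klf6 was −0.49 ± 0.09 (SE, edgeR adjusted p = 0.000599), with none of the 8 males above the female median. Atf3 was −1.22 ± 0.27 (SE, edgeR adjusted p = 0.00318), again with none of the 8 males above the female median. Both calls held in all 15 fits that left out 1 mouse. Other lists were lower in the same males: 5 of 9 tubule injury genes passed as lower (list median −0.60), among them Lcn2 (−1.26) and Vcam1 (−1.21), as did 7 of 13 AP-1 target genes (list median −0.53), among them Spp1 (−1.31) and Cd44 (−1.24). All 4 mast cell genes tested were lower too, Hdc by the largest margin (−4.43) and Kit by the smallest (−0.24). Of the 8 listed mast cell genes only 4 were tested in males and 5 in females. The 8 summed to 19.0 to 27.6 CPM in noncystic males and 39.8 to 107 CPM in noncystic females. Which cells these transcripts came from was not tested. Of 37 other immediate early genes, 8 passed as lower and 2 as higher (list median −0.32). Some lists leaned the other way. Of 14 Myc network genes 5 passed as higher and 1 as lower, and of 13 heat shock genes 3 passed as higher and 1 as lower. The part of any of these lists in the calls of Klf6 and Atf3 was not tested. Myc (−0.55 ± 0.21, adjusted p = 0.0564), Fosb (−0.91 ± 0.37, adjusted p = 0.0752) and Fos (−1.52 ± 0.72, adjusted p = 0.125) did not pass in edgeR.

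This count depended on 2 noncystic males. Without replicate 7, 8 of the 10 genes passed: Fos, Fosb, Jun, Junb, Egr1, Atf3, Ier2 and Klf6, with Egr1 at −2.21 (edgeR adjusted p = 0.00747) and Jun at −0.93 (edgeR adjusted p = 0.00606). Without replicate 6, 5 passed: Fos, Atf3, Ier3, Myc and Klf6, with Myc at −0.80 (edgeR adjusted p = 0.000191). Without noncystic female replicate 6, 3 passed: Atf3, Myc and Klf6. DESeq2 called 4 on all 15 mice, adding Fosb and Myc. Taking out the female against its label left the 2 calls as they were.

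Across all 7 comparisons between groups, no member had a pair of groups whose mice did not overlap in CPM, while some of all genes tested did: 2.11%, 1.11% and 1.06% in males and 1.06%, 2.99% and 1.73% in females for the 3 genotype comparisons in the order above, and 5.93% between noncystic males and females. These shares are small, so finding no such gene in so short a list does not set the members apart from all genes. Whether spread between mice accounts for the overlap was not tested. That spread was measured separately, as the pooled standard deviation within the 6 groups, on the scale of log2(CPM + 0.1). For Fos it was 1.62, equal to a 3.08-fold step between mice of one genotype and sex, and Fos ranked 9 of 15828 genes. Egr1 was at 1.45 and ranked 16. Fosb had 0.98, Junb 0.76, Atf3 0.73, Ier2 0.71 and Jun 0.69, all above the 98th percentile but for Jun, at 97.8. The median over all genes was 0.22.

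The other 3 were different. Ier3 had 0.48 (percentile 89.3), Myc 0.40 (81.3) and Klf6 0.29 (65.0). Against the 1000 genes nearest in mean level, Fos stood above all of them, Myc at percentile 84.2 and Klf6 at percentile 89.2. Of the 10 genes, 7 were above the 90th percentile of all genes, 0.49. Without Pkd1KO+ciliaKO male replicate 2 the values of Fos, Egr1 and Fosb were 1.44, 1.33 and 0.76. The spread was not a male trait alone, since Fos had a within-group SD of 1.26 to 1.41 in the 3 female groups and of 1.39 to 2.17 in the 3 male groups.

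**Figure D3:**
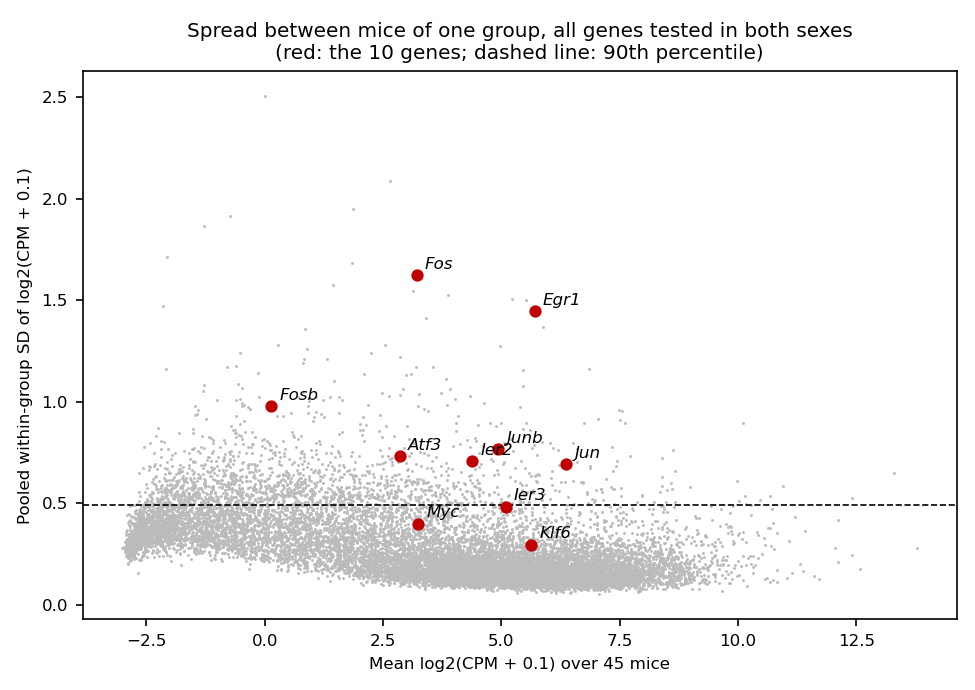
Pooled within-group SD of log2(CPM + 0.1) against the mean level for the 15828 genes tested in both sexes (grey) and the 10 genes (red), with the 90th percentile of all genes as a dashed line at 0.49. Fos (1.62) and Egr1 (1.45) lie at the top edge of the cloud and Klf6 (0.29) within it.

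The genes that varied most also varied together. After each value was set against its group mean, the correlation with Fos over 45 mice was r = 0.97 (rho = 0.97) for Egr1, 0.92 (rho = 0.91) for Ier2, 0.91 (rho = 0.87) for Jun, 0.88 (rho = 0.85) for Junb and 0.75 (rho = 0.69) for Fosb. For these 5 genes the two-sided permutation p was 1e-05 for both measures, the smallest that 100000 permutations within groups can give, and 1.8e-05 adjusted over the 9 genes tested. All 5 were positive in 6 of 6 groups. With the 2 mice farthest from the median of Fos left out (Pkd1KO+ciliaKO male replicate 2 and noncystic female replicate 3), r was 0.97 for Egr1, 0.92 for Ier2, 0.88 for Jun, 0.87 for Junb and 0.67 for Fosb.

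The remaining 4 followed Fos less. Atf3 had r = 0.59 (rho = 0.52, permutation p = 0.00037 and 0.00065, adjusted 0.000555 and 0.000975), 0.71 in males and 0.35 in females, and r = 0.48 without the 2 farthest mice. Klf6 had r = 0.34 (rho = 0.32, permutation p = 0.0384 and 0.0406, adjusted 0.0431 and 0.0522) and fell to 0.18 without those 2 mice. Ier3 had r = 0.37 (rho = 0.18, permutation p = 0.0335 and 0.273, adjusted 0.043 and 0.273), 0.55 in males and −0.06 in females, and 0.17 without the 2. The relations of Klf6 and Ier3 with Fos therefore rested on those mice. Without the 4 males that stood apart r was 0.57 for Klf6 and 0.40 for Myc (permutation adjusted p = 0.0006 and 0.0261), and 0.41 for Ier3, so the relation of Klf6 also depended on those males. Myc had r = 0.29 (rho = 0.24, permutation p = 0.083 and 0.139, adjusted 0.083 and 0.156). Among Fos, Jun, Junb, Egr1 and Ier2 the 10 pairwise r values were 0.86 to 0.97, and 0.81 to 0.97 without Pkd1KO+ciliaKO male replicate 2. Atf3 was closest to Fosb (r = 0.83) and to Klf6 among the steadier genes (r = 0.70).

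**Figure D4:**
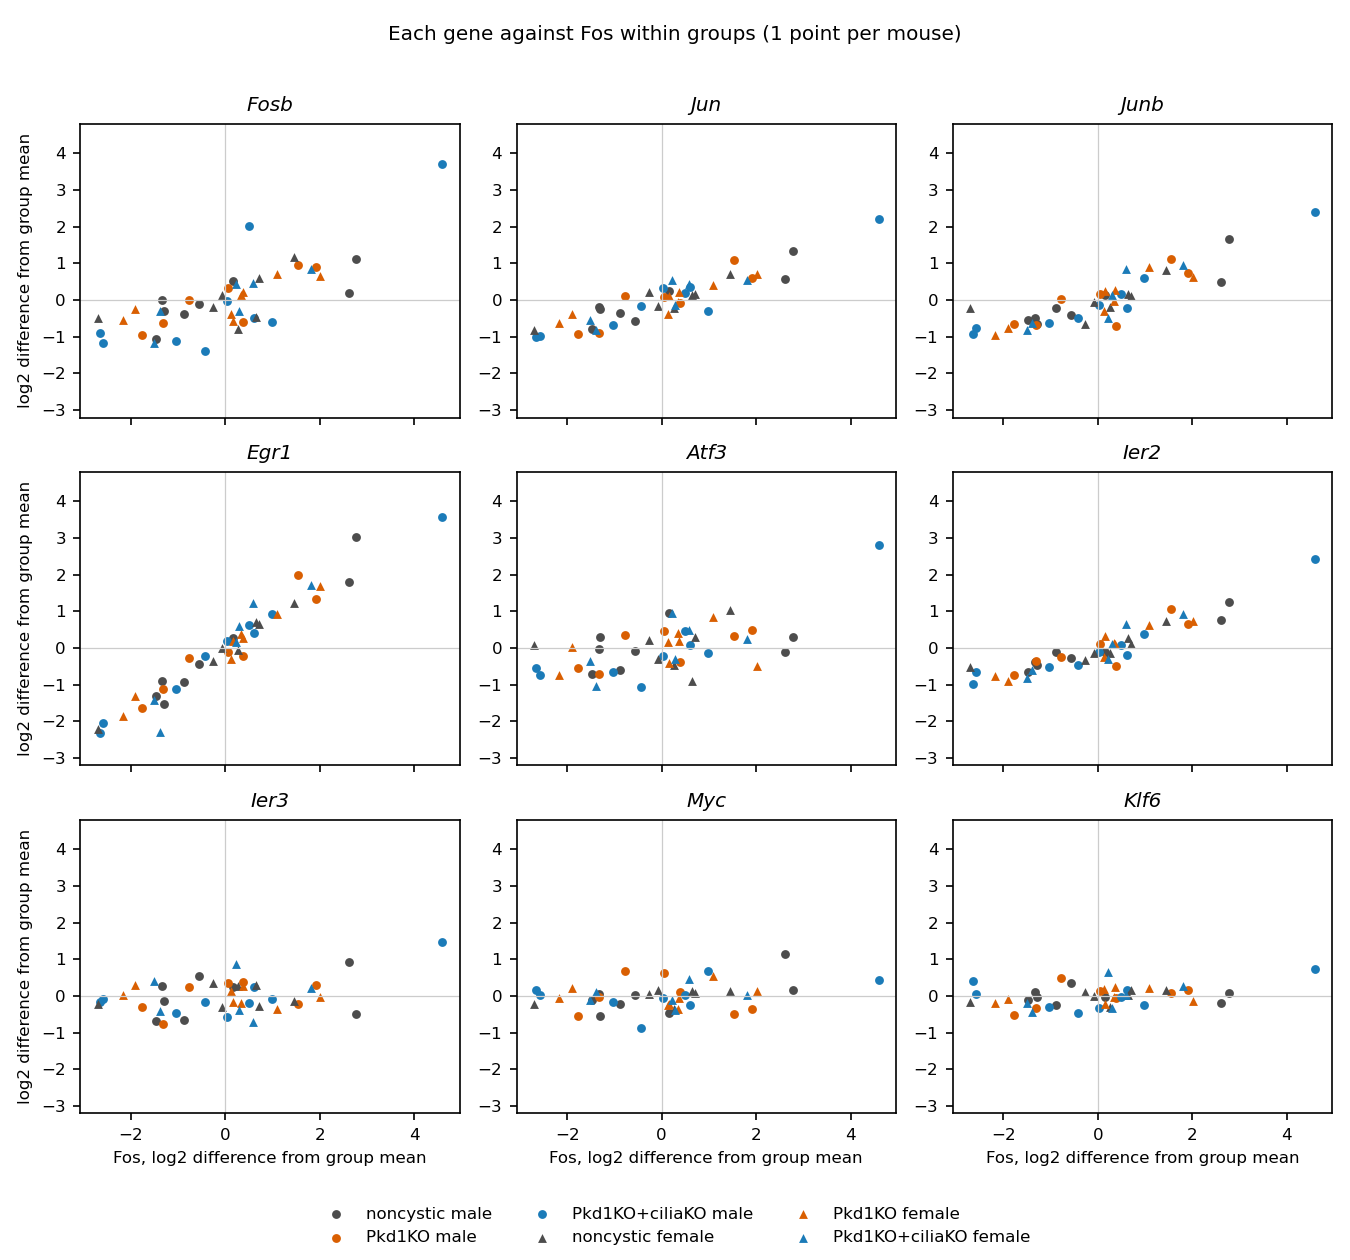
Each of the other 9 genes against Fos, both as log2 differences from the mean of the mouse's own group, 1 point per mouse (circles males, triangles females). Egr1 (r = 0.97), Ier2 (0.92), Jun (0.91) and Junb (0.88) rise along a line with Fos, while Ier3, Myc and Klf6 stay nearly flat.

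Single mice led these movements. Averaged over the 10 genes, Pkd1KO+ciliaKO male replicate 2 stood 2.43 log2 units above its group, noncystic male replicate 7 stood 1.12 above and noncystic male replicate 6 stood 0.82 above. In replicate 2 all 10 genes were above the group mean, and it held the highest of 45 values for 8 genes. The exceptions were Myc, where it ranked 8 of 45, and Klf6, where it ranked 2. At the other end Pkd1KO+ciliaKO male replicates 6 and 8 were 0.89 below their group.

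The genes outside the 10 that were most like their mean were mostly other early genes. Over the 45 mice, after centring on groups, the 8 protein-coding genes with the highest r were Btg2 (0.94), Zfp36 (0.87), Ccn1 (0.84), Nr4a1 (0.84), Tob1 (0.80), Rcan1 (0.80), Nfkbiz (0.79) and Dusp1 (0.78). Btg2 and Tob1 are related antiproliferative genes, Zfp36 promotes decay of AU-rich mRNA, Nr4a1 is an orphan nuclear receptor, Dusp1 is a MAP kinase phosphatase and Rcan1 is an inhibitor of calcineurin. Without Pkd1KO+ciliaKO male replicate 2, Btg2 was at 0.90 and Zfp36 at 0.86, still ranked 1 and 2. Of 37 other immediate early genes tested, 7 had r over 0.7, and of 14 MAP kinase phosphatases and feedback genes 3 had. Dusp1 is counted in both lists. Among all 15818 genes outside the 10, which include these lists, 15 had r over 0.7, or 0.0948%. None of the 16 other AP-1 and ATF subunits did, and their median r was 0.10.

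Of 9 technical and other-cell measures set against the mean of the 10 genes, 1 passed. The mean of 13 heat shock genes, most of which encode chaperones, had r = 0.54 (rho = 0.35, permutation p = 0.00333 and 0.026, adjusted 0.03 and 0.234), 0.59 in males and 0.45 in females, and was positive in 6 of 6 groups. It fell to 0.38 without the 2 mice farthest in the mean of the 10 genes, and without Pkd1KO+ciliaKO male replicate 2 it was 0.31 (permutation adjusted p = 0.507). That mouse had the highest heat shock mean of its group, 7.81 on the log2 scale against a group median of 7.21. Summed, the 13 genes ran from 3670 to 6947 CPM over all mice. Library total (r = −0.02), the mitochondrial share of counts (−0.20), tubule injury genes (−0.01), macrophage (−0.04), endothelial (−0.05), fibroblast and pericyte (0.17), erythrocyte (−0.09) and proximal tubule genes (0.01) had permutation adjusted p of 0.834 or more. In females several of these values were positive and in males negative (library total 0.38 and −0.29, erythrocyte 0.38 and −0.33).

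**Figure D5:**
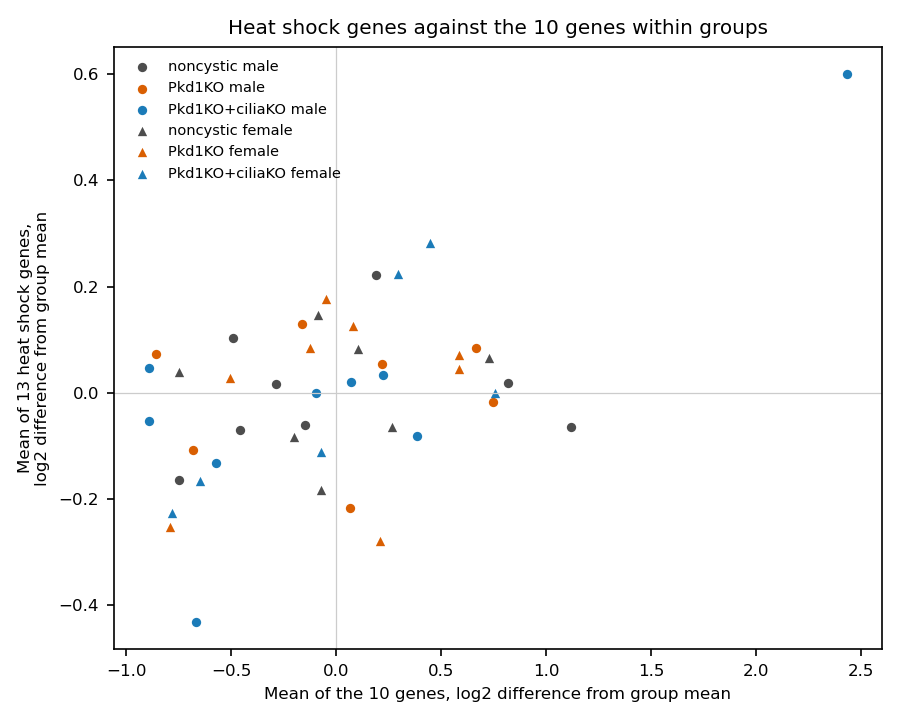
Mean of 13 heat shock genes against the mean of the 10 genes, both as log2 differences from the group mean, 1 point per mouse (circles males, triangles females). Pkd1KO+ciliaKO male replicate 2 is the point at the far right, at 2.43, and r over all 45 mice is 0.54.

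Genes of the same pathway were counted from lists, each beside the share of all genes called in that comparison given above. Female list values include both libraries whose Kif3a went against their labels. Kif3a itself did not pass in Pkd1KO+ciliaKO against noncystic females. Of 37 other immediate early genes, 5 rose and none fell in Pkd1KO against noncystic males, and 6 rose and none fell in Pkd1KO+ciliaKO against noncystic males. Socs3, an inhibitor of cytokine signalling, rose in both (1.54 ± 0.35 and 1.36 ± 0.27, edgeR adjusted p = 0.0128 and 0.00415), as did the nuclear receptor Nr4a2 (0.92 ± 0.22 and 1.17 ± 0.24, edgeR adjusted p = 0.0196 and 0.00496). The list medians were 0.29 and 0.27 in those comparisons. Between the 2 knockout genotypes 1 rose in each sex and none fell. In females 3 rose and 1 fell in Pkd1KO against noncystic, among them Ier5l (0.61 ± 0.11, edgeR adjusted p = 0.00497), and none passed in Pkd1KO+ciliaKO against noncystic. The 2 comparisons in males share the noncystic mice.

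Of 16 other AP-1 and ATF subunits, 1 rose in Pkd1KO against noncystic males, the small Maf protein Maff (0.88 ± 0.25, edgeR adjusted p = 0.042), and 2 rose in Pkd1KO+ciliaKO against noncystic males, Fosl2 (0.59 ± 0.12, edgeR adjusted p = 0.00584) and Atf5 (0.52 ± 0.16, edgeR adjusted p = 0.0498). None passed in the other 4 genotype comparisons. Of 20 serum response and MAP kinase inputs, 2 rose in Pkd1KO+ciliaKO against noncystic males, the kinase Rps6ka1 (0.63 ± 0.15, edgeR adjusted p = 0.0139) and the ternary complex factor Elk1 (0.28 ± 0.08, edgeR adjusted p = 0.0438). In Pkd1KO against Pkd1KO+ciliaKO females 1 of the 20 was higher (Map2k2) and 2 were lower, and none passed in the other 4. Of 14 MAP kinase phosphatases and feedback genes, 4 rose in Pkd1KO+ciliaKO against noncystic males: the phosphatases Dusp8 (0.71 ± 0.15), Dusp7 (0.46 ± 0.13) and Dusp10 (0.42 ± 0.12) and the Ras pathway inhibitor Spry1 (0.51 ± 0.16), with edgeR adjusted p of 0.0073 to 0.0454. Spry1 was the only one of the 14 that passed in Pkd1KO against Pkd1KO+ciliaKO females (−0.48 ± 0.15, edgeR adjusted p = 0.0467), and none passed elsewhere.

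Downstream of the 10 genes, 3 of 13 AP-1 target genes rose in Pkd1KO against noncystic males: Ccnd1, a cell cycle regulator, at 0.66 ± 0.11 (edgeR adjusted p = 0.00151), the adhesion receptor Cd44 at 1.25 ± 0.32 (edgeR adjusted p = 0.0249) and the metalloprotease inhibitor Timp1 at 2.50 ± 0.63 (edgeR adjusted p = 0.0259). Another 2 calls were made in Pkd1KO+ciliaKO against noncystic males, Ccnd1 (0.57 ± 0.09, edgeR adjusted p = 0.00113) and Spp1 (0.73 ± 0.15, edgeR adjusted p = 0.006). Cd44 was higher in Pkd1KO than in Pkd1KO+ciliaKO females (0.80 ± 0.25, edgeR adjusted p = 0.0477), and none of the 13 passed in the other 3 comparisons. The median of this list was 0.65 in Pkd1KO against noncystic males and 0.16 in females.

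Of 14 Myc network genes, 1 or 2 passed in each of the 6 genotype comparisons, and the list medians lay between −0.02 and 0.08. Among them, Mxd3 rose in Pkd1KO against noncystic males (1.36 ± 0.23, edgeR adjusted p = 0.00196) and Mxi1 in the females (0.41 ± 0.09, edgeR adjusted p = 0.0126). Both encode partners of Max that oppose Myc. The glucose-responsive factor Mlxipl was higher in Pkd1KO than in Pkd1KO+ciliaKO males (0.40 ± 0.09, edgeR adjusted p = 0.0157), as was Mycl at 0.73, and lower in Pkd1KO+ciliaKO than in noncystic males (−0.33 ± 0.09, edgeR adjusted p = 0.0286). Its partner Mlx was higher in Pkd1KO than in Pkd1KO+ciliaKO females (0.37 ± 0.07, edgeR adjusted p = 0.00367) and lower in Pkd1KO+ciliaKO than in noncystic females (−0.25 ± 0.06, edgeR adjusted p = 0.036). Of 20 Myc target genes, Odc1, which makes putrescine for polyamine synthesis, rose in Pkd1KO against noncystic females (0.73 ± 0.12, edgeR adjusted p = 0.00246) and against Pkd1KO+ciliaKO females (0.79 ± 0.13, edgeR adjusted p = 0.00228). The RNA pseudouridine synthase gene Pus7 fell in both knockout genotypes against noncystic males (−0.28 ± 0.06 and −0.20 ± 0.06, edgeR adjusted p = 0.0114 and 0.0404). None of the others passed in the 6 genotype comparisons, and the list medians lay between −0.10 and 0.06.

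Spread between mice differed among these lists as it did among the 10 genes. The median within-group SD was 0.57 for the other immediate early genes and 0.52 for the AP-1 target genes, with 19 of 37 and 8 of 13 above the 90th percentile of all genes. It was 0.24 for the other AP-1 and ATF subunits, 0.34 for the phosphatases and feedback genes, 0.15 for the serum response and MAP kinase inputs, 0.19 for the Myc network and 0.16 for the Myc targets, beside 0.22 over all genes.

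The lists that could carry other signals were counted as well, again with the 2 females against their labels kept. Of 13 heat shock genes, 1 fell in Pkd1KO against noncystic males (Bag3, −0.32 ± 0.08, edgeR adjusted p = 0.0281), 1 was higher in Pkd1KO than in Pkd1KO+ciliaKO females (Hsf1, 0.19 ± 0.06, edgeR adjusted p = 0.0486), and none passed elsewhere. Of 9 tubule injury genes, Lcn2 rose in both male knockout genotypes against noncystic (1.96 ± 0.49 and 1.70 ± 0.28, edgeR adjusted p = 0.0248 and 0.000905) and Krt20 in Pkd1KO (1.61 ± 0.46, edgeR adjusted p = 0.0471), beside the Atf3 and Klf6 calls in the same mice. The other tubule injury calls were Cd24a, lower in Pkd1KO than in Pkd1KO+ciliaKO mice of both sexes (−0.56 and −0.40), and Krt20, higher in the same female comparison (1.21). Their part in the calls of the 10 genes was not tested. Among the lists for other cell types given here, Pkd1KO males exceeded noncystic males in 1 of 4 mast cell genes (Ms4a2 3.31), 1 of 4 T cell genes (Cd2 2.38) and 1 of 8 fibroblast and pericyte genes (Acta2 1.55), and none of 8 endothelial or 5 erythrocyte genes passed. Ms4a2 also passed as higher in Pkd1KO against noncystic females (2.77) and in Pkd1KO against Pkd1KO+ciliaKO females (1.80). In Pkd1KO+ciliaKO against noncystic males Ms4a2 (2.21), Tpsb2 (1.52) and the macrophage gene Lyz2 (0.84) were higher and Csf1r (−0.42) lower. Csf1r was higher in Pkd1KO than in Pkd1KO+ciliaKO mice of both sexes (0.77 and 0.78). No T cell or fibroblast and pericyte gene passed in the other 5 comparisons. Of 6 proximal tubule genes, 4 fell in Pkd1KO+ciliaKO against noncystic males (Slc5a2 −4.48, Slc5a12 −0.62, Cubn −0.50, Lrp2 −0.49) and 1 in Pkd1KO against noncystic males (Cubn −0.46), and Slc5a2 was higher in Pkd1KO than in Pkd1KO+ciliaKO mice of both sexes (18.4-fold in males and 4.92-fold in females). Of 3 thick ascending limb genes, Slc12a1 was lower in Pkd1KO than in noncystic males (−0.72) and than in Pkd1KO+ciliaKO males and females (−0.73 and −0.53), and Cldn16 lower in Pkd1KO than in noncystic females (−0.53). The distal convoluted tubule gene Pvalb was higher in Pkd1KO+ciliaKO than in noncystic males (1.81) and lower in Pkd1KO than in Pkd1KO+ciliaKO mice of both sexes (−2.37 and −1.68). Of 4 intercalated cell genes, Aqp6 rose in Pkd1KO+ciliaKO against noncystic males (0.66) and Atp6v1g3 was lower in Pkd1KO than in Pkd1KO+ciliaKO females (−0.36), while none of 4 principal cell genes passed in the 6 genotype comparisons. Of 12 mitochondrial genes, 7 were lower in Pkd1KO than in Pkd1KO+ciliaKO females (list median −1.26) and none passed in the other 5. Neutrophil genes summed to at most 2.09 CPM and T cell genes to at most 6.74 CPM in any mouse.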

How the data were processed

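TRAP RNASeq libraries of 45 kidneys, 1 mouse each, were compared within each sex. The authors' raw counts per gene were deposited as 1 table per sex. The submitters' processing notes name fastp 0.20.0, STAR 2.7.9, featureCounts 2.0.0 and the build GRCm38.p6. The authors also deposited TPM, that is counts scaled for transcript length and library total, and these were used for levels between genes and as an alternative unit.

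Coding genes were kept for a sex where 20% or more of its mice reached 6 counts, and were tested with edgeR 4.0.16 (TMM scaling, quasi-likelihood test, R 4.3.3) and adjusted by Benjamini-Hochberg over all genes tested, with a threshold of 0.05. Each comparison of 2 genotypes used the mice of those groups, and sex differences used all 45. Fold changes are log2 with SE. Spread and correlations used log2(CPM + 0.1) after subtracting group means, with 100000 two-sided permutations within groups and adjustment over 9 relations each. Depth was 80874556 to 132958186 counts per library. CPM used library totals over the genes tested in both sexes, scaled by TMM factors. On that scale 3 counts, the limit a count of 0 allows, equal 0.0231 to 0.038 CPM. Such limits cover counting error only.

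The 10 genes and all lists were chosen with earlier results of these data known. Genes named besides the 10 were Pkd1 and Kif3a, up to 4 genes per list with the smallest p, and the 8 genes most like the 10. Further called genes of the short counts (Mycl, Lyz2, Csf1r and the other-cell genes) and the tissue checks Lrp2, Slc34a1 and Umod were named after their values were seen. The fit was tested on simulated data. No 2 of the 149 same-group pairs of libraries agreed within sampling noise (chi-square per degree of freedom 53.6 to 790). Alternatives were DESeq2 1.42.0, its size factors, other filters, all annotated genes, 1 fit per sex, a replicate block, limma 3.58.1 on weighted counts or TPM, leaving out each mouse, and leaving out libraries that stood apart or went against their labels. A fit with Fos as a covariate and fits without Pkd1KO+ciliaKO male replicate 2 outside the within-sex comparisons were chosen after seeing the data. The result of 1 marker list is not reported here.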

Additional observations from a re-analysis of the deposited data

Results flagged for a closer look

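Of 60 groups of values (10 genes in 6 groups), 8 held a mouse whose gap to its nearest neighbour, as a share of the range, was over Dixon's 95% limit, and chance gives about 1 in 20 groups. Pkd1KO+ciliaKO male replicate 2 accounted for 6 of the 8, as the highest of 9 mice: Fos at 259 CPM, Jun at 404 CPM, Junb at 158 CPM, Atf3 at 48.3 CPM, Ier2 at 118 CPM and Ier3 at 77.9 CPM. Its Egr1 (707 CPM) and Fosb (17.7 CPM) were also the highest of all 45 mice. The other 2 were noncystic female replicate 3, lowest for Fos at 1.92 CPM, and noncystic male replicate 6, highest for Myc at 14.3 CPM. The 6 values of replicate 2 come from 1 library and are not independent of each other.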

How the results depend on the processing

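Of the 10 genes, 2 were called in Pkd1KO against noncystic males. The count was 1 with the 3 genotypes in one fit and without the 4 males that stood apart, and 0 with a replicate block, with limma voom and sample quality weights, with limma on log2(TPM + 1) or log2(TPM + 0.1), and with Fos as a covariate. Leaving out 1 mouse gave 0 to 2. In Pkd1KO+ciliaKO against noncystic males the count of 2 became 1 with DESeq2, with DESeq2 size factors and with filterByExpr, and 0 with no filter, with all annotated genes, with a replicate block, with limma on either TPM scale and with Fos as a covariate, and leaving out 1 mouse gave 0 to 2. These counts were not always of the same genes. Over the 12 alternatives that did not leave out each mouse in turn, Fosb was called in 4, Klf6 in 2, Atf3 in 2 and Egr1 in 1. Between noncystic males and females the count of 2 was 4 with DESeq2 and 1 with Fos as a covariate, and 2 to 8 on leaving out 1 mouse. The other 7 counts were 0 in all alternatives run. The number of technical measures that moved with the 10 genes went from 1 to 0 without the 2 females against their labels and to 0 without Pkd1KO+ciliaKO male replicate 2. The causes were not tested.

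Same-numbered mice had a median correlation of 0.02 (−0.37 to 0.47), over 0.1 in 15 of 41 pairs, and the same number was the best match in 14 of 82 cases, so the numbers were not taken to pair the mice. The replicate block changed no other count of calls.

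Signs turned for some fold changes. In Pkd1KO against Pkd1KO+ciliaKO males, leaving out 1 mouse moved Fos from −2.23 to 0.13, Jun from −0.68 to 0.12, Egr1 from −1.47 to 0.23, Atf3 from −0.64 to 0.36 and Ier2 from −0.83 to 0.0914, each positive only without Pkd1KO+ciliaKO male replicate 2. There DESeq2 gave Fos 0.13 and Atf3 0.34, and Fos as a covariate gave Jun 0.0101, Egr1 0.14 and Atf3 0.20. With Fos as a covariate Jun was −0.18 in Pkd1KO against noncystic males, Jun −0.20, Junb −0.35 and Ier2 −0.29 in Pkd1KO+ciliaKO against noncystic males, and Jun 0.0560, Junb 0.0814, Egr1 0.0397 and Ier2 0.22 between noncystic males and females. Weighted voom gave Fos −0.20, Junb −0.10 and Ier2 −0.0366 in Pkd1KO+ciliaKO against noncystic females. The sex difference of Fos in Pkd1KO against Pkd1KO+ciliaKO was 0.56 without Pkd1KO+ciliaKO male replicate 2. Of 1283 alternative values for 58 fold changes at least as large as their error, 1173 kept direction and side of the threshold, 71 lost it, 17 gained it and 22 changed sign. The other 42 of 100 fold changes were smaller than their errors and are given no direction.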
